A study of Mus musculus with 42 samples.

Results

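The genes of the Toll-like receptor and NF-kB pathway were followed in macrophages of aged and young mice over the day. The set held 34 genes, chosen by name out of the 47643 genes of each deposited table, and 32 of them had a mean of at least 10 normalized reads at both ages and entered the tests. Aged mice were 18 to 20 months old and young mice 2 to 3 months old, all of the strain C57BL/6. Macrophages were taken at 7 zeitgeber times (ZT, the hour of the light cycle), ZT0, ZT4, ZT8, ZT12, ZT16, ZT20 and ZT24, and their RNA was sequenced from the 3′ end. There were 3 libraries for each age at each time, so that 21 aged and 21 young libraries were compared. The labels name no treatment and no tissue of origin, and do not say whether the libraries of a group came from separate mice. The p-values therefore measure the spread between these libraries, which may be technical. Each age has its own table, so age and any difference in how the 2 tables were made cannot be told apart.

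Toll-like receptors bind microbial products such as lipopeptides, lipopolysaccharide and nucleic acids, some at the cell surface and some in endosomes. The adaptor MyD88 recruits kinases of the IRAK family, which act through the ubiquitin ligase TRAF6, while the adaptor TRIF signals without them; both branches can turn on the kinases TAK1 and IKK. IKK marks the IkB proteins for breakdown and so frees NF-kB to enter the nucleus, where its targets include cytokines and also several of its own inhibitors. Macrophages use the pathway to sense bacteria and to start inflammation.

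The depth was 4864402 to 15587030 reads in genes per aged library, with a median of 8159784, and 7433159 to 13574542 per young library, with a median of 9847012. Mitochondrial genes took 1.35% to 2.27% of the reads in aged and 1.39% to 1.88% in young libraries. The libraries farthest from the other libraries of their group were replicate 3 at ZT16 and replicate 1 at ZT8, both aged, with root mean square differences of 0.81 and 0.72 on the log2 scale. Levels across ages are given below as rescaled reads, that is reads divided by 1 size factor per library estimated over all 42 libraries. Differences are log2 folds of aged over young, averaged over the 7 times.

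In level, the pathway did not move as a block. Of the 32 genes tested, 7 were higher in aged macrophages (Irak2, Tnfaip3, Nfkbie, Relb, Irak3, Cd14 and Tlr2) and 1 was lower (Irf5), by limma with a Benjamini-Hochberg adjusted p under 0.05. These 8 genes are 25% of the 32, beside 23.7% of all 12086 genes tested, so the share of pathway genes that changed is near the background. Among all genes 12.0% were higher and 11.7% lower. The log2 fold was above 0 for 23 of the 32 genes, and its median was 0.05, against a median of 0.00 over all genes. The median size of the fold, regardless of sign, was 0.10 in the pathway and 0.13 over all genes. Without the 2 libraries farthest from their groups 5 genes were higher and 1 lower, and the share of all genes in that fit is not given here. The 24 genes without a call were most of the receptors, all 4 adaptors, 5 of the 6 kinases and ligases, 3 of the 4 NF-kB subunits, 3 of the 6 inhibitors and Irf3.

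**Figure D1:**
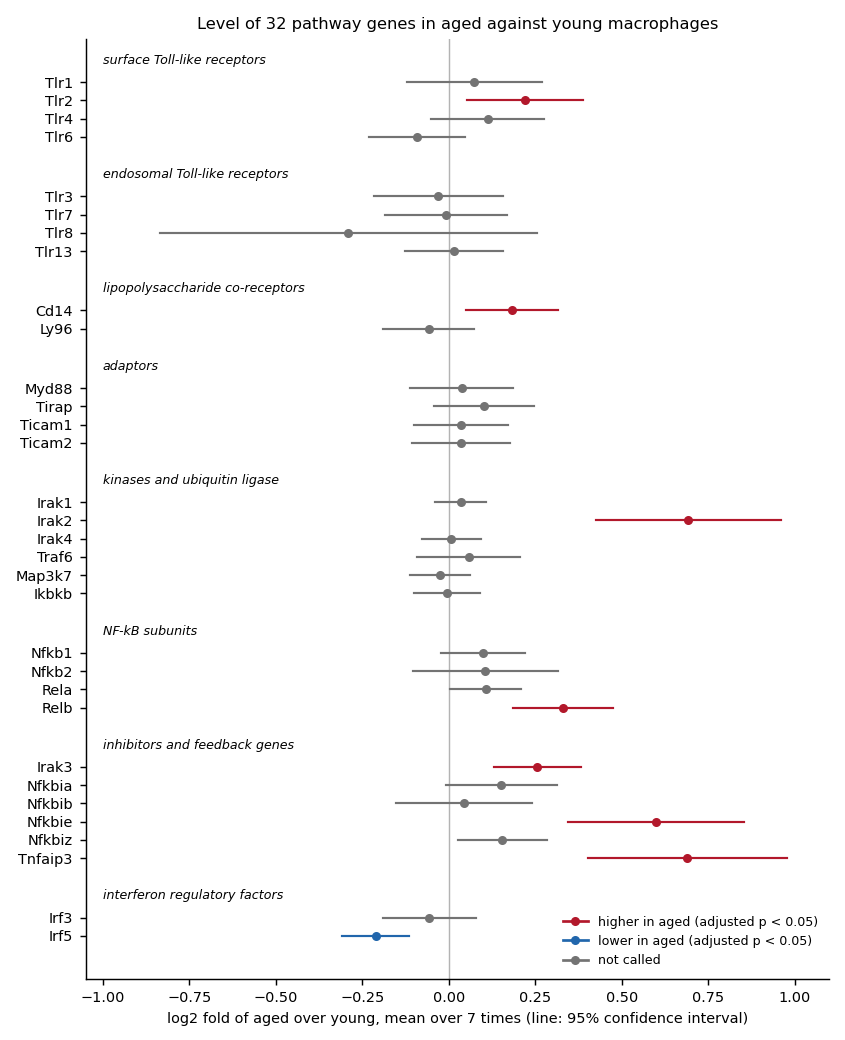
Log2 fold of aged over young macrophages for the 32 pathway genes tested, grouped by role. Points are the mean over 7 times and lines the 95% confidence interval; the 7 genes called higher lie between 0.18 (Cd14) and 0.69 (Irak2), and Irf5, the gene called lower, lies at -0.21.

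Markers of other cells moved with age in the same libraries. All 10 B cell markers were called higher in aged macrophages, and their summed level was 5326 to 21885 rescaled reads in aged libraries, with a median of 10760, against 5282 to 9751 in young ones, with a median of 7020. Of 9 T cell markers tested, 5 were higher and 0 lower, with a summed level of 641 to 2494 reads in aged and 676 to 1298 in young libraries. Of 9 mast cell markers 1 was higher and 1 lower (sums of 1516 to 4116 in aged, 1475 to 3186 in young), of 5 neutrophil markers 1 and 2 (401 to 955 in aged, 487 to 962 in young), and of 5 dendritic cell markers 0 and 3 (242 to 759 in aged, 405 to 789 in young). Of 10 macrophage markers 0 were higher and 3 lower, with sums of 184847 to 323525 reads in aged and 233181 to 344433 in young libraries. Of 8 genes that respond to cell handling, such as Egr1 and Junb, 3 were higher, with sums of 6183 to 10158 reads in aged and 5600 to 7775 in young libraries. No marker tested was at 0 in all libraries. Some of these sums rest largely on 1 gene. Lyz2 averaged 213764 rescaled reads in aged and 253063 in young libraries, and Cd2 of the T cell list 1038 in aged and 820 in young. Hdc, the mast cell marker called higher, averaged 1807 in aged and 957 in young libraries. Tpsb2, the mast cell marker called lower, averaged 175 in aged and 238 in young libraries. The sums therefore do not measure numbers of cells. In a bulk sample fewer cells of a type and less RNA per cell cannot be told apart.

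A fit that took in scores of the B, T and mast cell markers bears on the calls in level. With these covariates 3 pathway genes were higher and 1 lower, while 1345 of 12086 genes (11.1%) were called. The log2 fold was 0.35 ± 0.18 for Irak2, 0.57 ± 0.21 for Tnfaip3, 0.38 ± 0.19 for Nfkbie, 0.19 ± 0.11 for Relb and 0.13 ± 0.09 for Irak3 (SE, n = 21 libraries per age). These 5 genes were no longer called, with limma adjusted p of 0.274, 0.0820, 0.242, 0.305 and 0.433 in that order. Tlr2 (0.39 ± 0.12, adjusted p = 0.0281) and Cd14 (0.31 ± 0.10, adjusted p = 0.0293) kept a call with a larger fold, Nfkbia gained one (0.37 ± 0.11, adjusted p = 0.0236), and Irf5 kept its own (-0.24 ± 0.07, adjusted p = 0.0264). The SE of all 9 genes was larger with the covariates than without.

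**Figure D2:**
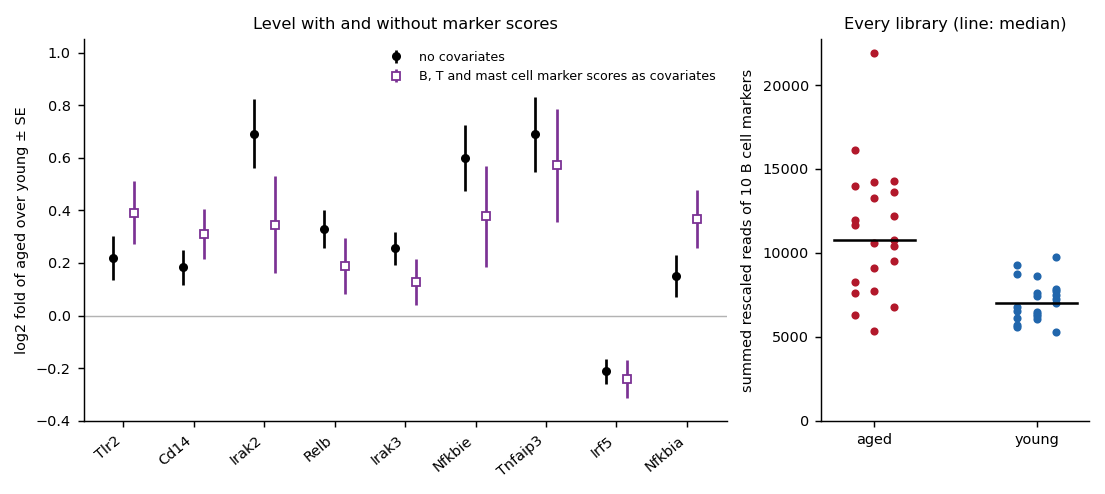
Left, log2 fold of aged over young ± SE for the 8 genes called in level and Nfkbia, without covariates (circles) and adjusted for the marker scores (squares): the folds of Irak2, Relb, Irak3, Nfkbie and Tnfaip3 are smaller with the scores, those of Tlr2, Cd14 and Nfkbia larger. Right, the summed rescaled reads of 10 B cell markers in every library, with a median of 10760 in aged and 7020 in young libraries.

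Of the surface receptors, Tlr2, which senses bacterial lipopeptides together with Tlr1 or Tlr6, was the only one of 4 tested that was called. Tlr2 (GRCm38 chr3:83836272-83841767, minus strand) had 140 to 374 rescaled reads in aged libraries, with a median of 197, and 130 to 247 in young ones, with a median of 186. The ranges overlapped widely, and 6 of 21 aged libraries lay above the highest young one. The log2 fold was 0.22 ± 0.08 (SE), positive at 6 of 7 times, with a limma adjusted p of 0.0499, at the edge of the threshold. It ended under 9 of 14 other settings, among them TMM scaling (adjusted p = 0.0575, range over the 14 settings 0.0264 to 0.145), a minimum mean of 1 (0.0588) and the fit without the 2 farthest libraries (0.0684). It also ended without any 1 of 25 of the 42 libraries, with adjusted p of 0.0510 to 0.0954. In the aged table these were replicate 2 at ZT0, 1 at ZT4, 1 and 3 at ZT8, 3 at ZT12, 2 at ZT16, 1, 2 and 3 at ZT20 and 1 at ZT24. In the young table they were replicates 1 and 2 at ZT0, 1 and 2 at ZT4, 1, 2 and 3 at ZT8, 1 and 2 at ZT12, 2 and 3 at ZT16, 1 and 2 at ZT20 and 1 and 2 at ZT24.

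The other surface receptors stayed within the spread of the libraries. Tlr4, the lipopolysaccharide receptor, had a median of 361 rescaled reads in aged and 347 in young libraries (log2 fold 0.11 ± 0.08, limma adjusted p = 0.346). Tlr1 had medians of 133 in aged and 129 in young libraries (0.07 ± 0.10, adjusted p = 0.643), and Tlr6 medians of 305 in aged and 327 in young libraries (-0.09 ± 0.07, adjusted p = 0.366). Their 95% confidence intervals ran from -0.12 to 0.27 for Tlr1, from -0.05 to 0.28 for Tlr4 and from -0.23 to 0.05 for Tlr6. Tlr5, which binds flagellin, was below the minimum, with a mean of 0.521 deposited reads in aged and 1.54 in young libraries and 0 reads in 29 of the 42.

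The endosomal receptors for nucleic acids gave no call in level. Tlr3, which binds double-stranded RNA, had a median of 179 rescaled reads in aged and 179.6 in young libraries, and Tlr7, which binds single-stranded RNA, 198 in aged and 202 in young libraries. Tlr13, which in mice binds bacterial ribosomal RNA, ran from 424 to 1237 reads in aged libraries and from 654 to 1022 in young ones, with a median of 839 in aged and 832 in young libraries. Tlr8 was thinly covered, at 2.24 to 35.1 reads in aged and 5.26 to 27.5 in young libraries, and its interval of -0.84 to 0.26 is the widest of the 32. Tlr9, which binds unmethylated DNA, was below the minimum mean, at 0 to 27.2 rescaled reads in aged libraries with a median of 1.77 and at 0 to 4.05 in young ones with a median of 0. It was at 0 in 21 of 42 libraries, and was called higher in aged cells in 1 of 57 settings, the one that lowered the minimum mean to 1.

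Cd14, the co-receptor that hands lipopolysaccharide to Tlr4, had 1064 to 2064 rescaled reads in aged libraries, with a median of 1358, and 761 to 1446 in young ones, with a median of 1229. The groups overlapped, with 8 of 21 aged libraries above the highest young one and 2 of 21 young ones below the lowest aged one. Its log2 fold was 0.18 ± 0.07 (limma adjusted p = 0.0366). At single times it ran from 0.01 at ZT4 and 0.02 at ZT0, which is hardly a difference, to 0.65 at ZT24. The call was lost without the ZT24 libraries (log2 0.11, adjusted p = 0.241, range over 14 settings 0.0186 to 0.241), without the 2 farthest libraries (0.15, adjusted p = 0.0909) and when libraries were scaled to their totals (0.16, adjusted p = 0.0585). It was also lost without any 1 of 14 libraries, at adjusted p of 0.0513 to 0.0746. These were the aged libraries replicate 2 at ZT0, 1 at ZT4, 1 at ZT8, 1 at ZT12, 3 at ZT16, 2 at ZT20 and 1 at ZT24, and the young libraries 2 and 3 at ZT0, 3 at ZT4, 1 and 3 at ZT12, 2 at ZT20 and 2 at ZT24. Ly96, the MD-2 protein that holds lipopolysaccharide on Tlr4, had a median of 230 reads in aged and 254 in young libraries (log2 -0.06 ± 0.06, adjusted p = 0.575).

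The adaptors Myd88, Tirap, Ticam1 (TRIF) and Ticam2 (TRAM) gave 0 calls. Their log2 folds lay between 0.04 and 0.10, and limma adjusted p between 0.330 and 0.772; none of the 4 had an unadjusted p under 0.05, and edgeR and DESeq2 also called 0. Myd88 ran from 763 to 1681 rescaled reads in aged libraries, with a median of 934, and from 756 to 1353 in young ones, with a median of 963. Ticam2 overlaps Tmed7 on the same strand, so reads of these genes could be split by the counting, which is not described.

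Among the kinases and the ubiquitin ligase Irak2 was called. It joins the complex of Myd88 with Irak4 and prolongs signalling to Traf6, and its gene lies at GRCm38 chr6:113638467-113695026 on the plus strand. It had 78.4 to 259 rescaled reads in aged libraries, with a median of 177, against 36.5 to 165 in young ones, with a median of 106. The groups were well apart but overlapped: 13 of 21 aged libraries lay above the highest young library, and at 4 of the 7 times all 3 aged libraries lay above all 3 young ones. The log2 fold was 0.69 ± 0.13 (limma adjusted p = 9.32e-05) and positive at 7 of 7 times, from 0.16 at ZT16 to 1.30 at ZT20. The call held without any 1 of the 42 libraries (adjusted p up to 0.000232) and in 13 of 14 other settings, and ended with the marker scores given above. Irak1, Irak4, Traf6, Map3k7 (TAK1) and Ikbkb, the catalytic IKK subunit, had log2 folds between -0.03 and 0.06 and limma adjusted p between 0.547 and 0.955. Their intervals were narrow: that of Irak1 ran from -0.04 to 0.11, that of Ikbkb from -0.10 to 0.09 and that of Irak4 from -0.08 to 0.09. Irak4 shares its 3′ end with Twf1 on the opposite strand, and whether counting used strand is not given in the sources used here.

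**Figure D3:**
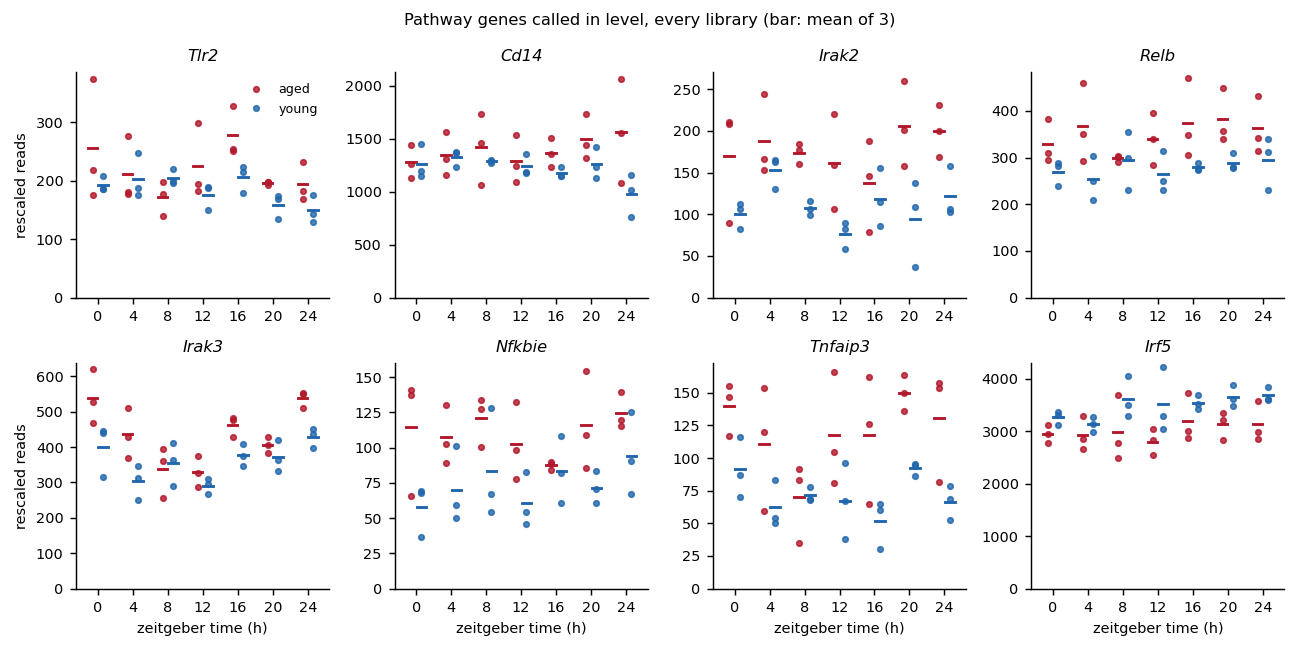
Rescaled reads of the 8 pathway genes called in level in every library by zeitgeber time, aged left and young right of each time, with bars for the mean of 3 libraries. The aged libraries of Irak2 reach 259 reads and the young ones 165, while for Irf5 11 of 21 aged libraries lie below the lowest young one at 2988 reads.

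Of the NF-kB subunits, Relb, the partner of Nfkb2 in the alternative branch, was higher. Relb (GRCm38 chr7:19606217-19629438, minus strand) had 283 to 470 rescaled reads in aged libraries, with a median of 340, and 208 to 355 in young ones, with a median of 280. All 21 aged libraries lay above the young median, and 7 lay above the highest young library. Its log2 fold was 0.33 ± 0.07 (limma adjusted p = 0.000518), positive at 7 of 7 times, and was called in 42 of 42 fits without 1 library (adjusted p up to 0.00123). The Relb call ended with marker scores as covariates (0.19, adjusted p = 0.305), the exception among 14 other settings. Rela, the subunit of the classical dimer that activates transcription, had a median of 1404 reads in aged and 1265 in young libraries. Its fold was small, at 0.11 ± 0.05, and was not called (limma adjusted p = 0.129). At single times the fold of Rela ran from 6.32e-07 at ZT8, which is no difference, to 0.22 at ZT24. Nfkb1 had medians of 1064 in aged and 964 in young libraries (0.10 ± 0.06, adjusted p = 0.253), and Nfkb2 medians of 141 in aged and 139 in young libraries (0.11 ± 0.10, adjusted p = 0.515).

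Of the 6 inhibitors and feedback genes 3 were called higher and 0 lower, beside 12.0% higher and 11.7% lower among all genes. Tnfaip3 encodes a ubiquitin-editing enzyme that shuts off signalling at Traf6 and IKK, and is itself a target of NF-kB. It had 34.7 to 166 rescaled reads in aged libraries, with a median of 126, and 30.7 to 116 in young ones, with a median of 68.5. In aged cells 13 of 21 libraries lay above the highest young one, and the log2 fold was 0.69 ± 0.14 (limma adjusted p = 0.000263). At ZT8 the fold was -0.14, and at the other 6 times it was positive, up to 1.14 at ZT16. Deviations of Tnfaip3 from its group means correlated with depth at -0.577 in aged and -0.153 in young libraries. A part of depth in its fold was not tested.

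Nfkbie, the IkB epsilon that retains NF-kB in the cytoplasm, had 65.4 to 154 rescaled reads in aged libraries, with a median of 109, against 36.3 to 128 in young ones, with a median of 67.6. Of the aged libraries 20 of 21 lay above the young median and 7 above the highest young value. The log2 fold was 0.60 ± 0.13 (limma adjusted p = 0.00034) and positive at 7 of 7 times, from 0.10 at ZT16 to 0.95 at ZT0. Irak3 (IRAK-M), an IRAK protein that holds back signalling, had 257 to 620 reads in aged libraries, with a median of 428, and 249 to 452 in young ones, with a median of 363. Here 9 of 21 aged libraries exceeded the highest young one, and the log2 fold was 0.26 ± 0.06 (adjusted p = 0.00179), positive at 6 of 7 times with -0.08 at ZT8. The calls of Tnfaip3, Nfkbie and Irak3 held without any 1 of the 42 libraries, with adjusted p up to 0.000638, 0.000806 and 0.00393 in that order, and in 13 of 14 other settings, the exception being the marker scores.

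Nfkbia (IkB alpha), the best known feedback target of NF-kB, was not called. It had 5878 to 12371 rescaled reads in aged libraries, with a median of 7383, and 5524 to 9767 in young ones, with a median of 7120. The top 6 aged libraries lay above all young ones, while the lower parts of the ranges coincided, and the log2 fold was 0.15 ± 0.08 (limma adjusted p = 0.177). Nfkbiz, an atypical nuclear IkB, had medians of 360.0 in aged libraries and 315 in young ones (0.15 ± 0.06, adjusted p = 0.0745), and was called in 4 of 57 settings. Nfkbib (IkB beta) had medians of 107 in aged and 104 in young libraries (0.04 ± 0.10, adjusted p = 0.801).

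The promoters of Tlr2, Nfkbie, Tnfaip3, Nfkbia and Tlr1 are shown. Each holds a match to the NF-kB consensus or to the E-box CACGTG, which clock factors bind. They are a choice among the genes with a match, and Nfkbia was not called in level or rhythm in the main fits. Irak3, called higher in level, holds an E-box at position 5 from its start site and is not shown. Each run covers 250 bases before and 50 after a RefSeq start site (GRCm38.p6), written on the gene's own strand, with matches on either strand in capitals.
Tlr2 promoter, chr3:83841559-83841858, minus strand: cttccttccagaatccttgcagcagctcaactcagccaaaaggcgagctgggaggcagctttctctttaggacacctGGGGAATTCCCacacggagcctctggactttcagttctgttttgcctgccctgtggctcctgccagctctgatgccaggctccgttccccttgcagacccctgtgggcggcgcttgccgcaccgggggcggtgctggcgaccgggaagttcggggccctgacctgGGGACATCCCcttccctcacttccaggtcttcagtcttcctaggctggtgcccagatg
Nfkbie promoter, chr17:45555450-45555749, plus strand: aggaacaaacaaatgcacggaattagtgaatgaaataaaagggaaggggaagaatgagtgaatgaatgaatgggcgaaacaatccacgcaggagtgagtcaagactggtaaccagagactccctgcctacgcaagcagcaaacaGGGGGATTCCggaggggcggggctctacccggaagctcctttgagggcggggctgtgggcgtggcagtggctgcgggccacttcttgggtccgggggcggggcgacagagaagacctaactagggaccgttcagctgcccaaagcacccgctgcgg
Tnfaip3 promoter, chr10:19015361-19015660, minus strand: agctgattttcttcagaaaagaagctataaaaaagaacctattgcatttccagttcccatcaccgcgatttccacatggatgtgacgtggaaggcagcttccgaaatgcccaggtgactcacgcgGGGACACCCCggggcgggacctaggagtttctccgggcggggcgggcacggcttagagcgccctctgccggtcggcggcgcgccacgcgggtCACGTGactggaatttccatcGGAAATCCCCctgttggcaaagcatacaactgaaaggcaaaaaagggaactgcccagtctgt
Nfkbia promoter, chr12:55492598-55492897, minus strand: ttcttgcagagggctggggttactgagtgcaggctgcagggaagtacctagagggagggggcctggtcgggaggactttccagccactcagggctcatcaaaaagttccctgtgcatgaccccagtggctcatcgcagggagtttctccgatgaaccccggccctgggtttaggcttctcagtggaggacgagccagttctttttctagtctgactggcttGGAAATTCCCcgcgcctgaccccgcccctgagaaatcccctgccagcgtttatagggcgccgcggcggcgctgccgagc
Tlr1 promoter, chr5:64932650-64932949, minus strand: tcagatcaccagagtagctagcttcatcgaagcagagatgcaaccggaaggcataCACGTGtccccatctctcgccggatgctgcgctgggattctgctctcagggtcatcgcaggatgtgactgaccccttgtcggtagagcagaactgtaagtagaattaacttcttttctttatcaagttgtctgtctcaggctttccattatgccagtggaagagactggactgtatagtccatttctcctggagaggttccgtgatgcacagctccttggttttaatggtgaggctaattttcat
In Tlr2 the first run in capitals holds a pair of overlapping NF-kB matches and the second a match across the start site. In Tnfaip3 the first and last runs are NF-kB matches, at positions -125 and -12 from the start, and the middle run is the E-box at -33. The runs in Nfkbie (-106) and Nfkbia (-29) are NF-kB matches, and that in Tlr1 (-195) is an E-box. The Tlr1 window lies wholly inside the gene as GENCODE annotates it (chr5:64924679-64933563), downstream of its 5′ end. For Tnfaip3 (chr10:19000910-19015657) and Tlr2 (chr3:83836272-83841767) the RefSeq start site also lies inside the GENCODE gene.

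RefSeq promoters were given for 25 of the 34 genes, as 33 promoters. Among 32851 promoters of all genes, 4.505% held the NF-kB consensus (a motif of 10 bases, searched on both strands) and 7.15% the E-box CACGTG. These shares are per promoter, while the counts that follow are per gene, with a match in any of its promoters. Of 5 genes called higher in level that had a promoter, 3 held the NF-kB consensus (Tlr2, Nfkbie and Tnfaip3), as did 4 of 17 genes without a call (Tlr3, Map3k7, Nfkb2 and Nfkbia) and 0 of 1 called lower. The E-box was found in Tlr1, Ticam1, Irak3 and Tnfaip3. A match describes these letters in this window and not the binding of a factor.

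Of the interferon regulatory factors, Irf5 was the only pathway gene lower in aged macrophages. Irf5 (GRCm38 chr6:29526625-29541871, plus strand) is activated downstream of Myd88 and drives inflammatory cytokine genes. It had 2498 to 3727 rescaled reads in aged libraries, with a median of 2941, against 2988 to 4221 in young ones, with a median of 3475. In aged cells 11 of 21 libraries lay below the lowest young one, and at 4 of 7 times all 3 aged libraries lay below all 3 young ones. The log2 fold was -0.21 ± 0.05 (limma adjusted p = 0.000799), negative at all 7 times, and it was called in every 1 of the 56 alternatives run, with folds between -0.24 and -0.19. The 3′ end of Irf5 overlaps that of Tnpo3, a nuclear import receptor on the opposite strand, at 29540827 to 29541871. Tnpo3 averaged 1583 rescaled reads in aged and 1619 in young libraries (log2 -0.03 ± 0.06, adjusted p = 0.790), and without a stated strand, reads of these genes in the overlap cannot be told apart. Irf3, which drives interferon genes after Tlr3 and Tlr4 signalling through TRIF, had medians of 218 in aged and 245 in young libraries (-0.06 ± 0.07, adjusted p = 0.602).

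At single times, 2 of 224 pairs of gene and time passed limma's test, with p adjusted over all genes at each time. An unadjusted p under 0.05 was found for 24 pairs. The share of all genes under that threshold at single times was not counted, so the 24 cannot be read as an excess. At ZT20, where 1.65% of all genes were called, Irak2 had 259, 201 and 158 rescaled reads in the aged libraries and 36.5, 108 and 137 in the young ones. All 3 aged values lay above all 3 young ones, and the log2 fold was 1.30 ± 0.35 (adjusted p = 0.0414). At ZT24, where 2.09% of all genes were called, Cd14 had 2064, 1557 and 1077 reads in the aged libraries and 1160, 761 and 1020 in the young ones. Here 2 aged libraries stood above all young ones and the other aged library lay among them; the log2 fold was 0.65 ± 0.17 (adjusted p = 0.0368). Both calls could be ended by leaving out 1 library. For Irak2 at ZT20 the log2 fold was 1.12 (limma adjusted p = 0.268) without aged replicate 1 and 1.30 (0.112) without aged replicate 2, 0.73 (0.486) without young replicate 1 and 1.499 (0.0666) without young replicate 2. The Irak2 call at ZT20 also ended with edgeR (1.13, adjusted p = 0.0839), with scaling to total reads (1.28, 0.0525), with the replicate block (1.30, 0.0512) and with marker scores (0.79, 0.538), where the range over 12 settings was 0.0276 to 0.538. For Cd14 at ZT24 the fold was 0.42 (adjusted p = 0.437) without aged replicate 1 and 0.63 (0.127) without aged replicate 2, 0.48 (0.283) without young replicate 2 and 0.69 (0.0686) without young replicate 3. The Cd14 call held in all 12 other settings, with adjusted p up to 0.0468. At ZT0, the same hour of the light cycle as ZT24, the log2 fold of Cd14 was 0.02 ± 0.17 (limma adjusted p = 0.992).

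The background of calls at the other times was 0.794% at ZT0, 1.35% at ZT4, 4.01% at ZT8, 2.08% at ZT12 and 1.06% at ZT16, and the pathway gave no call there by limma, edgeR or DESeq2. The values of Irak2 at ZT12 were 106, 159 and 220 rescaled reads in aged libraries and 58.2, 89.2 and 82.7 in young ones, a log2 fold of 1.03 ± 0.35 (limma adjusted p = 0.139). Those of Tnfaip3 at ZT16 were 126, 162 and 64.9 in aged libraries and 65.0, 60.6 and 30.7 in young ones, a fold of 1.14 ± 0.38 (adjusted p = 0.160). Aged replicate 3 at ZT16, the lowest of these aged values, is 1 of the 2 libraries farthest from their groups; without those 2, Tnfaip3 at ZT16 was called as well, which makes 3 calls.

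**Figure D4:**
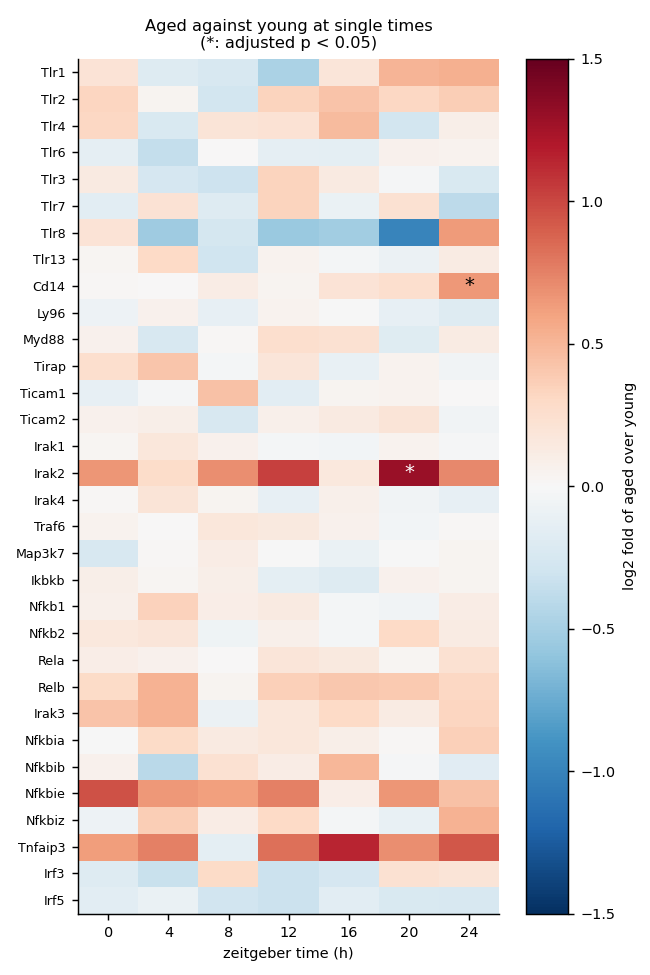
Log2 fold of aged over young at each zeitgeber time for the 32 pathway genes tested, red where aged is higher and blue where it is lower, with an asterisk where the limma adjusted p is under 0.05. The asterisks stand at Irak2 at ZT20 (1.30) and Cd14 at ZT24 (0.65), and the rows of Irak2, Nfkbie and Relb are red and that of Irf5 blue at all 7 times.

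Rhythms were tested as a cosine of 24 h within each age, on the deposited values. In aged macrophages 0 of 32 pathway genes were called rhythmic by limma, beside 0.308% of all genes (37 of 12016). Of the 32 genes 4 had an unadjusted p under 0.05, beside 9.01% of all genes, edgeR called 0 and DESeq2 called 1. The lowest p in aged cells was that of Irak3, whose means ± SD over 3 libraries were 496 ± 72.3 deposited reads at ZT0, 401 ± 65.6 at ZT4, 310.0 ± 65.6 at ZT8, 302 ± 39.6 at ZT12, 426 ± 27.5 at ZT16, 372 ± 21.1 at ZT20 and 496 ± 23.2 at ZT24. The values were low at ZT8 and ZT12 and high around ZT0. The fitted fold from trough to peak was 1.55, with a peak at ZT22.6 ± 0.90 h (SE; limma adjusted p = 0.0887). DESeq2 called Irak3 (adjusted p = 0.0190, range over 14 settings 0.0190 to 0.398), and limma called it without aged replicate 2 at ZT20 (0.0470). Ticam2 (fold 1.39, peak at ZT20.0, adjusted p = 0.452) and Tnfaip3 (fold 1.89, peak at ZT20.4, adjusted p = 0.462) followed.

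In young macrophages 1 of 32 pathway genes was called rhythmic, beside 3.62% of all genes (438 of 12113). This was Tlr1, the partner of Tlr2 for triacylated lipopeptides (GRCm38 chr5:64924679-64933563, minus strand). Its means ± SD were 94.8 ± 12.2 deposited reads at ZT0, 194 ± 29.5 at ZT4, 181 ± 8.01 at ZT8, 181 ± 6.85 at ZT12, 122 ± 35.5 at ZT16, 115 ± 6.75 at ZT20 and 97.8 ± 21.5 at ZT24 (n = 3 each). The libraries from ZT4 to ZT12 were high and those from ZT20 to ZT0 low. The fitted fold was 2.09, with a peak at ZT8.84 ± 0.69 h (limma adjusted p = 0.00286), and the call held without any 1 of the 21 young libraries and in all 14 other settings (adjusted p up to 0.0168). In young cells 4 pathway genes had an unadjusted p under 0.05, beside 17.2% of all genes. The others were Nfkb1 (fold 1.27, peak at ZT19.8, adjusted p = 0.151), Irak3 (1.31, ZT21.5, adjusted p = 0.200) and Nfkbia (1.24, ZT15.1, adjusted p = 0.210). Without young replicate 2 at ZT0, Nfkbia was called too.

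In aged macrophages the means ± SD of Tlr1 were 94.5 ± 24.8 deposited reads at ZT0, 145 ± 34.6 at ZT4, 131 ± 21 at ZT8, 110 ± 7.98 at ZT12, 122 ± 52.3 at ZT16, 139 ± 15.1 at ZT20 and 120 ± 20.0 at ZT24. The fitted fold was 1.09 (limma adjusted p = 0.970). The test of the difference in rhythm between the ages gave Tlr1 the lowest p among the pathway genes, 0.00976 before and 0.999 after adjustment over all genes, so the difference did not pass. Next in limma's test came Tlr2 (unadjusted p = 0.117) and Nfkbib (unadjusted p = 0.125), both with a Benjamini-Hochberg adjusted p of 0.999. Over the 32 pathway genes the difference in rhythm gave 0 calls, beside 0 of 12086 genes by limma, with 1 pathway gene and 4.09% of all genes at an unadjusted p under 0.05; edgeR and DESeq2 also called 0 pathway genes. With 7 free time levels in place of the cosine, 0 were called, beside 0.0248% of all genes, and Irf3 alone had an unadjusted p under 0.05 (0.0358, adjusted 0.948).

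**Figure D5:**
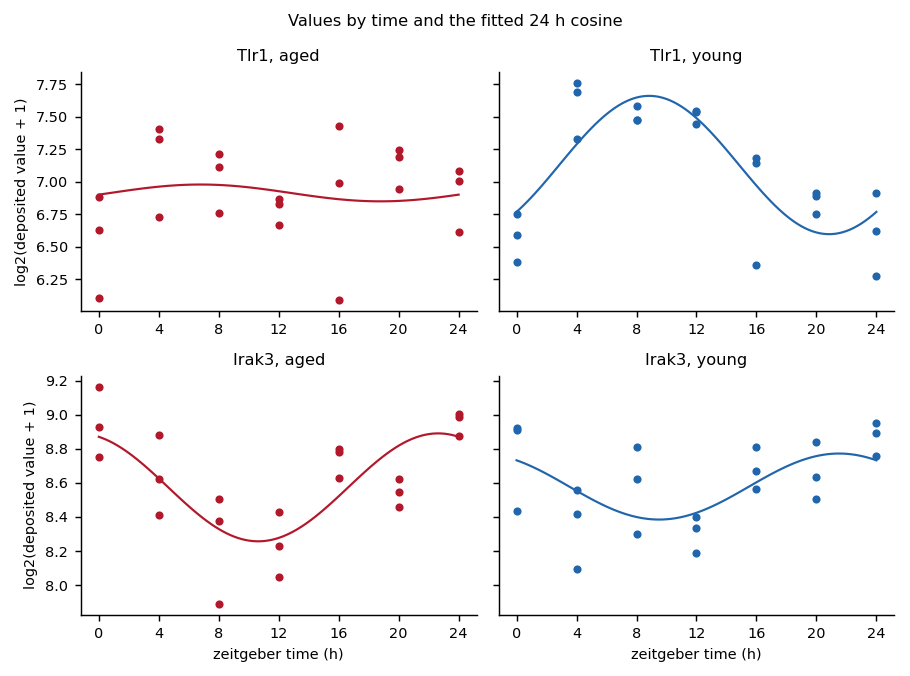
Deposited values of Tlr1 and Irak3 by zeitgeber time on the scale log2(value + 1), aged left and young right, with each library as a point and the fitted 24 h cosine as a line. The tables were scaled separately, so the panels show shape and not level: young Tlr1 peaks at ZT8.84 with a fold of 2.09, against a fold of 1.09 in aged cells, and Irak3 has folds of 1.55 in aged and 1.31 in young cells.

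Whether libraries of the same age and time that were high in Nfkbia were also high in other NF-kB target genes was tested on deviations from the group means, in 14 relations with 7 genes within each age. No relation passed after adjustment. The lowest p was that of Nfkbia with Nfkb1 in aged libraries, with Pearson's r = -0.573 and Spearman's rho = -0.592 over 21 libraries (permutation p = 0.00816 and 0.00647, adjusted p = 0.114 and 0.0906). It was -0.589 without the 2 libraries farthest from the median of Nfkbia. In the same libraries depth correlated with Nfkbia at 0.365 and with Nfkb1 at -0.747, and its part in the relation was not tested. Of the genes called higher, Tnfaip3 correlated with depth there at -0.577, Irak2 at -0.192, Nfkbie at -0.049 and Relb at 0.384. With Tnfaip3 and Nfkbie, Nfkbia had r of 0.081 and -0.0003 in aged libraries and of -0.112 and -0.133 in young ones.

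Beyond these 34, 87 other genes of the pathway were looked up, and of the 79 tested 22 were higher and 6 lower in aged macrophages (35.4%, beside 23.7% of all genes), with a median log2 fold of 0.08. The 87 genes were chosen with earlier results of these data known. A part of that choice in the share called was not tested. Folds of these 79 genes with marker scores as covariates are not given here. A part of B cells or other cells in their differences was not tested. The 24 target genes of NF-kB that were tested gave 9 higher and 0 lower, beside 12.0% higher and 11.7% lower among all genes, with a median of 0.27. Sdc4, a heparan sulfate proteoglycan, averaged 297 ± 55.7 rescaled reads in aged and 113 ± 24.8 in young libraries (SD, n = 21 each; log2 1.41 ± 0.10, limma adjusted p = 2.14e-14). Cd83, a surface protein of activated antigen-presenting cells, averaged 175 ± 68.8 in aged and 88.6 ± 32.5 in young libraries (0.95 ± 0.14, adjusted p = 2.34e-06). Tnfaip2 had a log2 fold of 0.54 ± 0.09 (adjusted p = 1.13e-05), and Icam1, an adhesion molecule for leukocytes, 0.69 ± 0.12 (adjusted p = 4.21e-05). None of the cytokine and chemokine targets tested was called (Tnf, Il1a, Il1b, Il6, Cxcl1, Cxcl2, Cxcl10, Ccl2, Ccl3 and Ccl4). Their folds ran from -0.30 (Ccl3) to 1.09 (Cxcl10), with limma adjusted p from 0.0741 (Ccl4) to 0.956 (Tnf). Most had few reads, as Tnf with a mean of 13.5 in aged and 12.2 in young libraries. In young cells 2 of these 24 targets were called rhythmic by limma, beside 3.62% of all genes: Bcl2a1b (fold 1.91, adjusted p = 0.00163) and Tnfaip2 (fold 1.83, adjusted p = 0.0191). In aged cells 0 of the 79 genes were called by limma, beside 0.308% of all genes, and 9 had an unadjusted p under 0.05, beside 9.01% of all genes.

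Of 18 other negative regulators, 5 were higher and 2 lower, beside 12.0% higher and 11.7% lower among all genes. Il1rl1, the interleukin-33 receptor, fell to 138 ± 47.3 rescaled reads in aged libraries, against 253 ± 56.1 in young ones (SD, n = 21 each; log2 -0.92 ± 0.12, limma adjusted p = 1.21e-07). Tnip1, which binds the Tnfaip3 protein, rose by 0.37 ± 0.07 on the log2 scale (adjusted p = 7.08e-05), Trim30a by 0.26 ± 0.05 (adjusted p = 0.000191) and Otulin, which removes linear ubiquitin chains, by 0.23 ± 0.06 (adjusted p = 0.00506). Of 23 other kinases, ligases and scaffolds, 3 were higher and 1 lower, beside the same 12.0% and 11.7% of all genes. Tank, an adaptor of the kinase TBK1, rose by 0.40 ± 0.06 (adjusted p = 1.11e-06), the interferon regulator Irf7 by 0.61 ± 0.14 (adjusted p = 0.000679) and the ubiquitin ligase Peli1 by 0.17 ± 0.05 (adjusted p = 0.0124), while Peli2 fell (-0.27 ± 0.08, adjusted p = 0.0148). Of 14 genes for receptor folding, trafficking and accessory proteins, 5 were higher and 3 lower, beside the same 12.0% and 11.7%. Ctsl, an endosomal protease, rose by 0.37 ± 0.08 (adjusted p = 0.000265), Cd180, a relative of Tlr4 that B cells also carry, by 0.30 ± 0.07 (adjusted p = 0.000496) and the endosomal transporter Slc15a4 by 0.19 ± 0.05 (adjusted p = 0.00465). Cnpy3, a chaperone of Toll-like receptors, fell (-0.15 ± 0.04, adjusted p = 0.00738).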

How the data were processed

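RNA of 42 libraries was sequenced from the 3′ end (QuantSeq, per the labels). The submitters' processing notes list the build mm10 and the tools STAR and DESeq2. Versions, the counter, its use of strand and the annotation were not given in the sources used here. Per gene the authors deposited a normalized signal, in 1 table for each age, scaled separately. Reads divided by a size factor were read back as whole reads for 100% of values (tolerance 0.001), with size factors of 0.592 to 1.84 in aged and 0.769 to 1.43 in young libraries. All 42 replicate pairs differed beyond sampling noise (chi-square over genes, 7.82 to 59.1 per gene).

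For level and differences, recovered reads were rescaled over all 42 libraries by DESeq2's median of ratios; rhythms used the deposited values. Limma-trend (3.58.1, R 4.3.3) was fitted to log2(value + 1) of genes with a mean of at least 10. Level and single times came from a model of 14 group means, and rhythm and its difference from 24 h cosine and sine terms. Calls had a Benjamini-Hochberg adjusted p under 0.05 over all genes tested. Folds on this scale understate changes of genes with few reads. Across genes, edgeR 4.0.16 called 2873 genes different in level and DESeq2 1.42.0 called 3052. Tests were checked on simulated data. No molecular identifiers are described, so reads are not independent molecules. The alternative that leaves out the 2 libraries farthest from their groups was chosen after seeing the data.

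Symbols, positions and overlaps came from GENCODE M21 on GRCm38, and promoters from RefSeq on GRCm38.p6. Of the 47643 genes, 47224 matched a symbol. Tlr7, Ikbkb, Tlr4, Relb, Ticam2, Ly96, Cd14, Nfkbiz and Nfkb1 had no promoter used here. All 34 pathway genes are accounted for; values are given in full for genes called, or for the 3 of lowest p where none was, and of other lists for up to 4 called genes of lowest p. The pathway genes and all lists were chosen with earlier results of these data known. Of the genes named outside this rule, Nfkbia and the cytokine and chemokine targets were chosen after their values were seen. So were the values of Irak2 at ZT12 and Tnfaip3 at ZT16.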

Additional observations from a re-analysis of the deposited data

How the results depend on the processing

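Irf5 stayed lower in all 56 alternatives run for level, and Tlr1 rhythmic in young cells in all 35 run for it. The difference in rhythm stayed at 0 pathway genes throughout. The number of pathway genes higher in aged cells was 5 to 8 without 1 library, and 3 with marker scores as covariates. At single times the count was 1 with edgeR, with scaling to total reads, with the replicate block and with marker scores, each of which lost Irak2 at ZT20, and 1 to 3 without 1 library. Rhythmic pathway genes in aged cells numbered 1 with DESeq2 and 0 to 1 without 1 library, and in young cells 1 to 2 without 1 library. Where scaling to total reads, the block or edgeR changed a call, the cause was not tested. The 8 genes called in level kept their sign in all of these. Of the 32 genes tested, 6 without a call changed sign with marker scores, namely Tlr1, Tlr3, Tlr8, Ticam2, Traf6 and Map3k7.

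Replicate numbers are shared between groups. Deviations of same-numbered libraries correlated at a mean of -0.002 (-0.263 to 0.190), and 11 of 42 libraries correlated best with their own number. No pairing by number was visible in these values, which cannot exclude a weak effect shared by same-numbered libraries. With the replicate number as a block, 6 pathway genes were higher, 1 was lower and 1 pair of gene and time was called. Over all genes 1535 pairs of gene and time were called with the block, in place of 1576. The share of all genes called in level with the block is not given here.

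With scaling to total reads 1278 of all genes were higher and 1645 lower, in place of 1446 and 1417, and 21 in place of 23 pathway genes had a fold above 0. The median log2 fold of all genes was -0.02 there. DESeq2 gave no adjusted p for 2114 genes in the young rhythm test, 1 of them a pathway gene. Intervals are widest where reads are few, as for Tlr8, and Tlr5 and Tlr9 fall below the minimum mean.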
